A study of Mus musculus with 8 samples.

Results

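Transcript levels of 10 genes of the ATF4 stress-response and amino acid programme were measured in 4 mouse lung squamous cell carcinoma (LUSC) lines. The genes were chosen by name: Atf4, Atf5, Ddit3, Trib3, Chac1, Asns, Phgdh, Psat1, Sesn2 and Ddit4. They took 11 of the 55487 gene rows of the deposited tables, because Ddit3 had a second, short row. The lines PLA and PLA4 (PLA lines) were set beside PL12 and PL1 (PL lines), with 2 bulk RNA-seq libraries per line and 8 in all. The study is about loss of ACKR3, a decoy receptor for the chemokine CXCL12. All 4 lines came from genetically engineered mouse models. The labels do not spell out the letters of the line names, and alleles, Cre driver, clonality, number of source animals and ages are not given in the sources used here.

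ATF4 is a bZIP transcription factor of the integrated stress response. Kinases that sense amino acid shortage, unfolded protein in the endoplasmic reticulum, viral RNA or heme lack phosphorylate the initiation factor eIF2α, which lowers general translation while the Atf4 transcript is translated better. ATF4 protein then activates genes for amino acid synthesis, uptake and stress control. Because much of this regulation acts on translation, the Atf4 transcript is not a measure of ATF4 protein. In human non-small cell lung cancer cells, the oxidative stress factor NRF2 is known to raise serine synthesis genes through ATF4.

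ATF4 binds with C/EBP partners to a composite element whose core can be written TGATGNAA. The core was searched on both strands in RefSeq promoter windows of the GRCm38.p6 build, which run from 250 bases before to 50 bases after a gene's start. It was found in 3 of the 12 windows that belong to the 10 genes, and in 3.97% of 32851 windows over all genes. The stretches below hold those 3 matches and are shown because Chac1, Trib3 and Asns carry contrasts described further on. Each is written 5′ to 3′ on the gene's own strand, and the capitals mark the match. A match is a run of letters and not a measured binding site.
Chac1 promoter, chr2:119351003-119351102, plus strand: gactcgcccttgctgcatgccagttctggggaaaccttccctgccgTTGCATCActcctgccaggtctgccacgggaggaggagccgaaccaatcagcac
Trib3 at its RefSeq start, chr2:152344028-152344057, minus strand: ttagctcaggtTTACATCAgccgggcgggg
Asns promoter, chr6:7693210-7693309, minus strand: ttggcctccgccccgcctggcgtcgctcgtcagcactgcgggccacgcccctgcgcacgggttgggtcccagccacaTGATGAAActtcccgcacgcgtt
In Chac1 and Trib3 the core reads on the strand opposite to the gene, before the start in Chac1 and just past the RefSeq start in Trib3. In Asns it reads on the gene's own strand, before the RefSeq start and inside the gene as GENCODE, whose start lies further upstream, draws it. The endoplasmic reticulum stress response element (ERSE), searched as its full consensus, was in 0 of the 12 windows and in 0.119% of all windows.

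Libraries held 48857912 to 142458240 counts. Ackr3 was at 0.0254 to 0.387 CPM (counts scaled to library size) in the PLA lines and at 25.3 to 86.3 CPM in the PL lines, with no overlap. The summed level of 5 squamous and basal markers (Trp63, Krt5, Krt14, Krt6a, Dsg3) was 12678 to 18004 CPM in the PLA lines. It was 8997 and 17080 CPM in PL1, and 1694 and 1772 CPM in PL12. Of the leukocyte and myeloid markers, Ptprc was at no more than 0.0264 CPM in any library, while Itgam was at 51.5 and 48.1 CPM and Cd68 at 29.0 and 27.2 CPM in PLA. In the other lines Itgam reached at most 1.00 CPM and Cd68 14.9 CPM. Alveolar and airway markers were at or near 0. The 2 libraries of PL1 and of PLA4 resembled each other less than those of PLA and PL12. The correlation of replicates across genes was 0.978 in PL1 and 0.974 in PLA4, against 0.999 in PLA and 0.997 in PL12.

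The 10 genes did not separate the PLA lines from the PL lines. Most of them were high in PLA and in PL1 replicate 2, and low in PLA4, PL12 and PL1 replicate 1. The serine synthesis genes Phgdh and Psat1 had another order and were highest in PL12. On the log2(CPM + 1) scale, each gene was centred on its own mean over the 8 libraries. The mean of the 10 centred values stood at 0.92 and 0.90 in both PLA libraries, -0.51 and -0.74 in PLA4, -0.37 and -0.21 in PL12, and -0.74 and 0.75 in PL1. All 10 genes were above their own mean in PL1 replicate 2, and only 1 of them was in PL1 replicate 1. In these bulk samples, fewer cells of a type and less RNA per cell cannot be told apart.

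**Figure D1:**
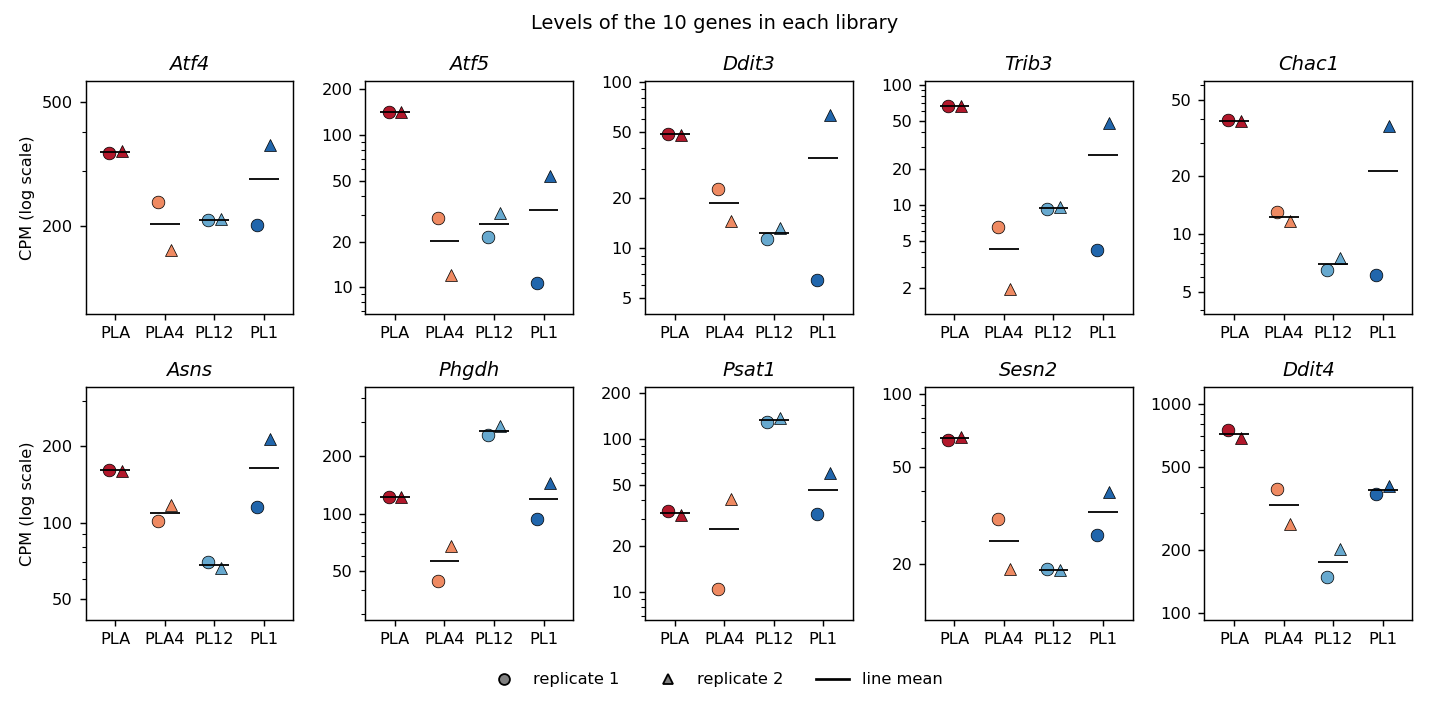
CPM of the 10 genes (vertical axes, log scale) in the 8 libraries, grouped by line from PLA and PLA4 to PL12 and PL1. The PL1 libraries lie far apart for Trib3, at 47.6 and 4.19 CPM in replicates 2 and 1, and Phgdh and Psat1 are highest in PL12.

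**Figure D2:**
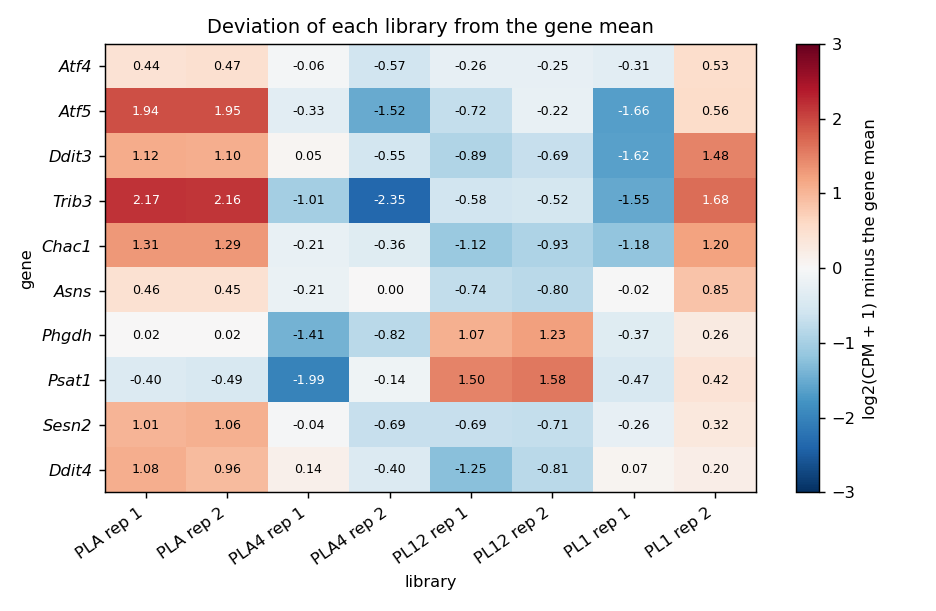
Centred log2(CPM + 1) of the 10 genes by library, each relative to its own mean over the 8 libraries, with genes as rows, red above and blue below the mean. PL1 replicate 2 is above the mean for all 10 genes, whereas PL1 replicate 1 is above it for 1.

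Atf4, at chr15:80255184-80257541 on the plus strand (GRCm38, as all gene positions here), was among the more abundant transcripts and varied least. It was at 341.6 and 348.4 CPM in PLA, 239.9 and 168.6 CPM in PLA4, 209.6 and 210.7 CPM in PL12, and 202.1 and 363.2 CPM in PL1, in replicates 1 and 2. PLA and PL1 replicate 2 were high, and the PLA and PL1 libraries overlapped. No pair of lines was called for Atf4 by edgeR's quasi-likelihood test. That test estimates 1 spread per gene over all 4 lines. A gap between the replicates of 1 line, such as PL1, thus enters the standard error (SE) of every pair. The change nearest to the threshold was PLA4 over PLA, with a log2 fold change of -0.76 ± 0.30 (SE, adjusted p = 0.101), and PLA over PL12 had an adjusted p of 0.102. In both pairs the libraries of the lines did not overlap, and each difference was called in 4 of 17 other settings.

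Atf5, at chr7:44812256-44816658 on the minus strand, encodes a related bZIP factor whose translation is controlled like that of Atf4. The libraries of PLA held 141.6 and 142.0 CPM, 28.6 and 11.98 CPM in PLA4, 21.5 and 30.9 CPM in PL12, and 10.8 and 53.7 CPM in PL1. Both PLA libraries were above all 6 other libraries, which overlapped among the 3 remaining lines. Atf5 rose 5.41-fold in PLA over PL12, a log2 fold change of 2.44 ± 0.76 (edgeR adjusted p = 0.0467). It fell by 2.80 ± 0.77 on the log2 scale in PLA4 over PLA (edgeR adjusted p = 0.0387). PLA over PL1 gave 2.14 ± 0.76 and missed the threshold (adjusted p = 0.0791), but was called in 7 of 17 other settings. The 2 calls, in PLA over PL12 and PLA4 over PLA, passed in 11 and 9 settings, with adjusted p of up to 0.215 and 0.139.

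Ddit3 encodes CHOP, a factor induced by ATF4 that is known for its part in stress-related cell death. Its main row, at chr10:127290774-127296288 on the plus strand, was at 48.7 and 48.1 CPM in PLA, 22.7 and 14.6 CPM in PLA4, 11.4 and 13.2 CPM in PL12, and 6.47 and 63.0 CPM in PL1. The PL1 libraries held both the lowest and the highest of the 8 values. Ddit3 was called in no pair of lines by edgeR, where the gap between the PL1 libraries enters the SE of each pair. A missed threshold between PLA and PL12 is therefore not a sign of a small difference. Its largest difference was a log2 fold change of 1.98 ± 0.90 in PLA over PL12 (edgeR adjusted p = 0.129). The PLA and PL12 libraries did not overlap, and that difference was called in 6 of 17 other settings. The second row named Ddit3 lies wholly inside the exons of the main row and never exceeded 0.943 CPM, so it was kept apart as uncertain.

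Trib3, at chr2:152337422-152344032 on the minus strand, encodes a pseudokinase induced by ATF4 that feeds back on it. It had the widest range of the 10 genes, 34.0-fold between the highest and the lowest library. The libraries of PLA held 67.01 and 66.53 CPM, 6.52 and 1.97 CPM in PLA4, 9.15 and 9.59 CPM in PL12, and 4.19 and 47.6 CPM in PL1. PL1 replicate 2 was close to PLA, and PL1 replicate 1 was close to PLA4 and PL12. Trib3 fell 15.7-fold in PLA4 over PLA, a log2 fold change of -3.98 ± 1.13 (edgeR adjusted p = 0.0419), a call kept in 9 of 17 other settings with adjusted p of up to 0.142. The log2 fold change of 2.83 ± 1.07 in PLA over PL12 missed the threshold (adjusted p = 0.0812), as did 1.36 in PLA over PL1 (adjusted p = 0.349). They were called in 6 and 3 of the 17 other settings.

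Chac1, at chr2:119351229-119354381 on the plus strand, encodes an enzyme that breaks down glutathione and is a sensitive ATF4 target. It was at 39.3 and 38.9 CPM in PLA, 13.04 and 11.65 CPM in PLA4, 6.51 and 7.55 CPM in PL12, and 6.16 and 36.4 CPM in PL1. As for Trib3, PL1 replicate 2 lay near PLA, whereas PL1 replicate 1 lay at the level of PL12. Chac1 rose 5.56-fold in PLA over PL12, a log2 fold change of 2.47 ± 0.73 (edgeR adjusted p = 0.0382). That call was kept in 10 of 17 other settings, with adjusted p of up to 0.179.

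Asns, at chr6:7675169-7693254 on the minus strand, encodes asparagine synthetase, which makes asparagine from aspartate and glutamine. It was at 161.2 and 159.9 CPM in PLA, 101.1 and 117.0 CPM in PLA4, 69.8 and 66.6 CPM in PL12, and 115.5 and 212.1 CPM in PL1. PL12 was the lowest line, and both its libraries were below all 6 others. Asns rose 2.36-fold in PLA over PL12 (log2 fold change 1.24 ± 0.27, edgeR adjusted p = 0.0150) and fell 2.40-fold in PL12 over PL1 (log2 fold change -1.27 ± 0.27, edgeR adjusted p = 0.0216). These calls were kept in 13 and 12 of 17 other settings, with adjusted p of up to 0.0957 and 0.132. PLA and PL1 overlapped, with a log2 fold change of -0.03 ± 0.27.

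Phgdh, at chr3:98313170-98339990 on the minus strand, encodes the enzyme of the first step of serine synthesis from glycolysis. It was at 122.3 and 122.5 CPM in PLA, 44.8 and 68.1 CPM in PLA4, 254.8 and 283.9 CPM in PL12, and 93.4 and 144.6 CPM in PL1. PL12 was above and PLA4 below all other libraries. Phgdh fell 4.77-fold in PLA4 over PL12 (log2 fold change -2.25 ± 0.28, edgeR adjusted p = 0.00244), a call kept in all 17 other settings. It also fell 2.20-fold in PLA over PL12 (adjusted p = 0.0186) and 2.17-fold in PLA4 over PLA (adjusted p = 0.0251), and rose 2.26-fold in PL12 over PL1 (adjusted p = 0.0253), all by edgeR. The last 3 calls were kept in 12, 11 and 11 settings, with adjusted p of up to 0.134.

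Psat1, at chr19:15904678-15947337 on the minus strand, encodes the transaminase of the next step of serine synthesis. It was at 33.7 and 31.7 CPM in PLA, 10.5 and 40.8 CPM in PLA4, 128.5 and 136.3 CPM in PL12, and 32.2 and 60.4 CPM in PL1. PL12 stood above every other library, and the remaining 3 lines overlapped. Psat1 fell 4.05-fold in PLA over PL12 (log2 fold change -2.02 ± 0.61, edgeR adjusted p = 0.0422) and 5.16-fold in PLA4 over PL12 (log2 fold change -2.37 ± 0.62, edgeR adjusted p = 0.0274). Those calls were kept in 12 and 13 of 17 other settings, with adjusted p of up to 0.171 and 0.108. The log2 fold change of 1.52 ± 0.60 in PL12 over PL1 missed the threshold (adjusted p = 0.118), but was called in 6 of the 17 other settings.

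Sesn2, at chr4:132492032-132510501 on the minus strand, encodes a leucine sensor that restrains mTORC1, the kinase complex that drives growth. It was at 64.6 and 66.8 CPM in PLA, 30.6 and 19.1 CPM in PLA4, 19.1 and 18.8 CPM in PL12, and 26.2 and 39.5 CPM in PL1. Both PLA libraries were above all others. Sesn2 rose 3.47-fold in PLA over PL12 (log2 fold change 1.80 ± 0.28, edgeR adjusted p = 0.00450), a call kept in all 17 other settings. It rose 2.00-fold in PLA over PL1 (log2 fold change 1.00 ± 0.27, edgeR adjusted p = 0.0388) and fell 2.64-fold in PLA4 over PLA (edgeR adjusted p = 0.0134). These were kept in 10 and 15 settings, with adjusted p of up to 0.182 and 0.0910.

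Ddit4, at chr10:59949669-59951834 on the minus strand, encodes REDD1, which inhibits mTORC1 under energy or oxygen shortage and glucocorticoids. It was at 751.9 and 689.2 CPM in PLA, 391.8 and 268.0 CPM in PLA4, 148.9 and 201.8 CPM in PL12, and 372.4 and 407.4 CPM in PL1. PLA was highest and PL12 lowest with no overlap, and PLA4 and PL1 overlapped. The PL1 libraries, which lay far apart for Trib3 and Ddit3, differed only 1.09-fold here. Ddit4 rose 4.11-fold in PLA over PL12 (log2 fold change 2.04 ± 0.24, edgeR adjusted p = 0.00194), a call kept in all 17 other settings. It rose in PLA over PL1 (0.89 ± 0.23, adjusted p = 0.0354) and in PLA4 over PL12 (0.91 ± 0.23, adjusted p = 0.0257), on the log2 scale by edgeR. It fell by 1.15 ± 0.24 in PL12 over PL1 (adjusted p = 0.0182) and by 1.13 ± 0.24 in PLA4 over PLA (adjusted p = 0.0162). These 4 calls were kept in 9, 12, 12 and 14 settings, with adjusted p of up to 0.206.

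Levels were compared between genes in TPM, which is scaled to transcript length. In PLA the order of line means ran from Ddit4 at 681.7 TPM and Atf4 at 331.9 TPM, through Asns at 134.6 and Atf5 at 129.2 TPM, to Sesn2 at 29.7 and Psat1 at 20.3 TPM. In PL12 the order was another one, with Phgdh first at 227.6 TPM, then Atf4 at 192.2, Ddit4 at 158.0 and Psat1 at 77.3 TPM. Trib3 was lowest of the 10 in PLA4, at 3.39 TPM.

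Across pairs of lines, the members called were counted against all 18648 genes tested, of which all 10 were tested. In PLA over PL12, 7 genes were called, 5 higher and 2 lower, where 37.7% of all genes were called. DESeq2 called 9 there, 7 higher and 2 lower, where it called 24.4% of 30966 genes. In PLA over PL1, 2 were called, both higher, where 27.3% of all genes were called and 14.4% were higher. In PLA4 over PL12, 1 was higher and 2 were lower, where 36.0% of all genes were called. In PLA4 over PL1 there were 0 calls by edgeR, where 8.54% of all genes were called. Of the 10 genes, 2 had an unadjusted p under 0.05 there by edgeR, Trib3 and Phgdh, both lower. No share over all genes is given here for that threshold. DESeq2 called 1, a fall of Phgdh. The shares of the 10 genes in PLA over PL1 and in PLA4 over PL12 were thus near the background. With any single PLA or PL12 library left out, 0 of the 10 were called in PLA over PL1, and 2 in PLA over PL12. The calls over all genes also fell in those fits, to 1090 to 3166, against 5100 with all libraries, in PLA over PL1, and to 2459 to 2984, against 7035, in PLA over PL12.
The median log2 fold change of the 10 genes was 1.89 in PLA over PL12, 0.68 in PLA over PL1, 0.18 in PLA4 over PL12 and -0.73 in PLA4 over PL1. Over all genes tested, the medians were 0.05, -0.01, 0.02 and 0.00 in the same order. These comparisons share lines, so their values are not independent of each other.

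**Figure D3:**
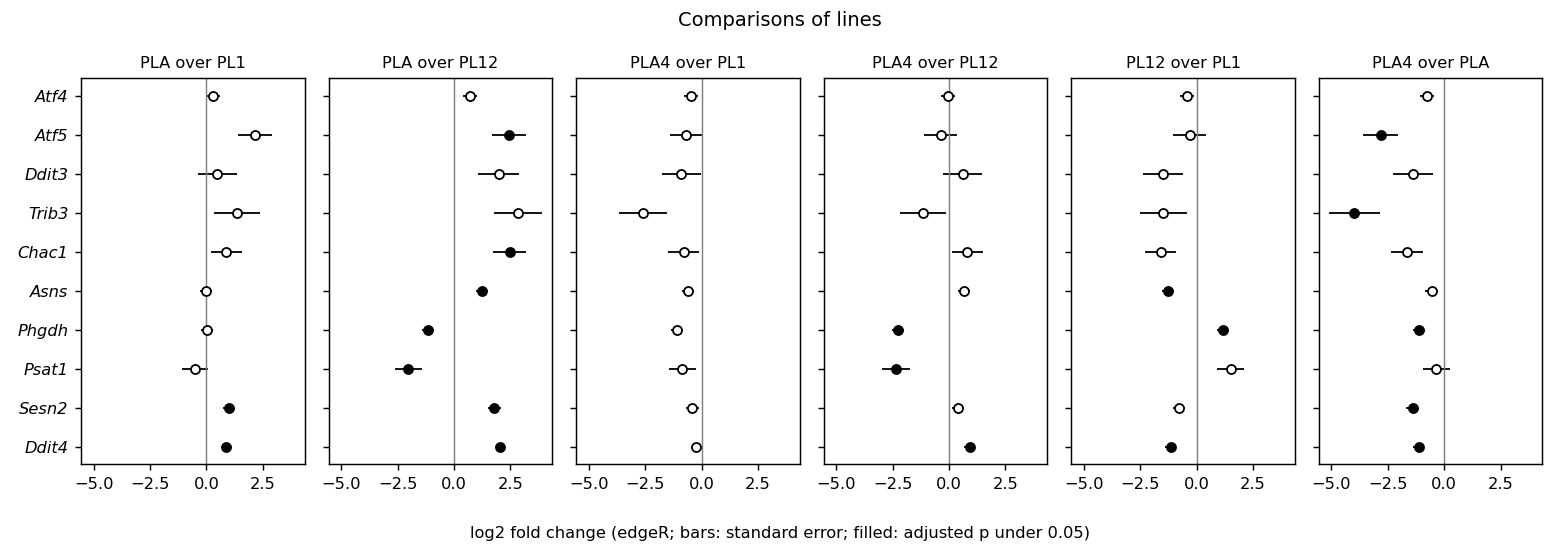
Log2 fold changes with SE of the 10 genes in 6 comparisons of lines, with calls at an adjusted p under 0.05 marked. In PLA over PL12, Phgdh and Psat1 are negative and the other 8 genes positive, and in PLA4 over PL1 no gene is called.

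No member was called with the same sign in all 4 pairings of PLA lines and PL lines by edgeR, where 1.99% of all genes were. DESeq2 also gave 0, and 0 members met this rule at an unadjusted p under 0.05. The 4 PLA libraries overlapped the 4 PL libraries for each of the 10 genes, where 15.7% of all genes did not overlap. On counts summed per line, with 4 profiles, edgeR called 0 of the 10 genes and 0% of 18859 genes, of which 4.60% had an unadjusted p under 0.05. DESeq2 called 0 of the 10 genes and 357 genes in all. The member with the smallest p was Psat1, at a log2 fold change of -1.62 ± 0.58 in PLA lines over PL lines (unadjusted p = 0.0454, adjusted p = 0.852), which was the 1 member under an unadjusted p of 0.05.

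Lines of the same family also differed. In PLA4 over PLA, 5 of the 10 genes fell and 0 rose, where 29.0% of all genes were called and 14.9% were lower. The median of the 10 was -1.25, against 0.04 over all genes. In PL12 over PL1, Phgdh rose and Asns and Ddit4 fell, where 23.7% of all genes were called. The median of the 10 was -0.97 there, against -0.03 over all genes.

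The 2 PL1 libraries gave different answers and were therefore used one at a time. All 10 genes were higher in replicate 2 than in replicate 1, and 4 of them by more than 2-fold on the CPM + 1 scale, where 4.32% of all genes were that much higher and 6.30% differed that much either way. Trib3 was 11.4-fold higher in replicate 2, Ddit3 9.74-fold, Chac1 5.92-fold and Atf5 4.99-fold. The other 6 genes were 1.09-fold to 1.88-fold higher. Over all genes tested, the median ratio was 0 on the log2(CPM + 1) scale. In PLA and PL12, 0 of the 10 genes differed by more than 2-fold between replicates, where 0.0429% and 0.343% of all genes did. In PLA4, where 7.59% of all genes did, Psat1 was 3.88-fold higher in replicate 2, and Trib3 and Atf5 were 3.30-fold and 2.39-fold higher in replicate 1.

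**Figure D4:**
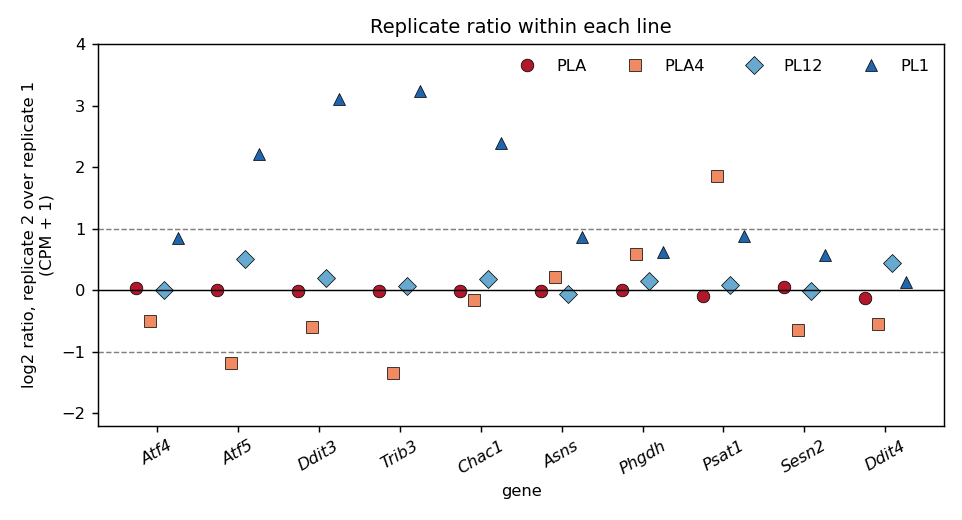
Ratio of replicate 2 to replicate 1 (log2 of CPM + 1) for each of the 10 genes in the 4 lines. All 10 points of PL1 are above 0, with Trib3 at 3.23 and Ddit3 at 3.10, and the points of PL12 reach 0.50 for Atf5 and 0.44 for Ddit4.

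PL1 replicate 2 also differed in markers. The summed level of 6 fibroblast markers was 282.3 CPM in replicate 2 and 3.08 CPM in replicate 1, against 0.753 to 10.4 CPM in the other 3 lines. In replicate 2, 5 of the 6 were above 1 CPM, led by Col1a1 at 254.0 CPM and Dcn at 10.7 CPM, while Col1a2 was at 0.176 CPM. In replicate 1, Col1a2 and Pdgfrb were at 0 counts, and Col1a1 was at 0.575 CPM. The squamous and basal sum was 8997 CPM in replicate 2 and 17080 CPM in replicate 1. The sum of 4 epithelial markers (Epcam, Cdh1, Krt8, Krt18) was 1048 CPM in replicate 2 and 1282 CPM in replicate 1.
The epithelial sum also set other libraries apart. It was 3326 and 3224 CPM in PLA, 3081 and 921.6 CPM in PLA4, and 6278 and 6717 CPM in PL12. In PLA4, Krt8 was at 1686 CPM in replicate 1 and 56.2 CPM in replicate 2. The leukocyte and myeloid sum was 80.5 and 75.3 CPM in PLA and 2.08 to 15.6 CPM in the other lines. The part of these marker differences in the members' levels was not tested.

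With PL1 replicate 2 alone as PL1, 0 of the 10 genes were called in PLA over PL1 by edgeR, where 18.3% of all genes were called, and the median of the 10 was 0.02. Of the 10 log2 fold changes, 5 were positive, and DESeq2 was not run on that subset. Trib3 then had a log2 fold change of 0.49, Chac1 of 0.10 and Ddit3 of -0.38. With PL1 replicate 1 alone, 5 genes rose in PLA over PL1, where 27.0% of all genes were called and 12.8% were higher. Trib3 had 3.94 (adjusted p = 0.0199), Atf5 3.66 (adjusted p = 0.0131), Ddit3 2.85 (adjusted p = 0.00444), Chac1 2.61 (adjusted p = 0.00180) and Sesn2 1.27 (adjusted p = 0.0308). In these fits the lone library was assumed to vary like those of the other lines.
PLA4 over PL1 also turned on the library. With PL1 replicate 2 alone, Trib3, Ddit3, Chac1, Phgdh and Asns fell, where 10.3% of all genes were called and 5.55% were lower. With PL1 replicate 1 alone, Chac1 rose by 1.01 (adjusted p = 0.0424) and the other 9 genes were not called, where 6.24% of all genes were called and 3.40% were higher. For PL12 over PL1, replicate 2 alone gave 5 falls, those of Ddit3, Chac1, Asns, Sesn2 and Ddit4, where 18.4% of all genes were called and 10.6% were lower. Replicate 1 alone gave a fall of Asns and a rise of Phgdh, where 20.3% were called. Without PL1 replicate 2, Chac1 was the 1 member called higher in all 4 pairings of PLA and PL lines, where 1.03% of all genes were.

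The rest of the pathway was taken from 5 lists with 58 genes, all of them tested. They were the eIF2α kinases and phosphatase subunits, amino acid and one-carbon enzymes, amino acid transporters, cytosolic aminoacyl-tRNA synthetases, and further stress-response genes linked to ATF4 or CHOP. In PLA over PL1, 7 rose and 5 fell, or 20.7% of the 58. In PLA over PL12, 11 rose and 5 fell (27.6%), and in PLA4 over PL1, 0 rose and 6 fell (10.3%). In PLA4 over PL12, 3 rose and 12 fell (25.9%), and 0 of the 58 were called with 1 sign in all 4 comparisons by edgeR. DESeq2 called 2 of the 58 in all 4, where it called 714 of 30966 genes. By edgeR, 2 had an unadjusted p under 0.05 in all 4, for which no share over all genes is given here. Of the 4 percentages by comparison, the one in PLA4 over PL1 was above that over all genes, and the other 3 were below.
Within families, 4 rose and 5 fell in PL12 over PL1, or 15.5% of the 58, against 23.7% of all genes. In PLA4 over PLA, 1 rose and 17 fell, or 31.0%, against 29.0% of all genes. The 17 falls took in 3 of 7 eIF2α kinases and phosphatase subunits, 5 of 14 amino acid and one-carbon enzymes and 4 of 12 tRNA synthetases. They also took in 2 of 10 transporters and 3 of 15 further stress-response genes, where 14.9% of all genes were lower. In PLA over PL1, the enzymes had 3 rises and 3 falls and the transporters 0 rises and 1 fall. The count of 12 calls in PLA over PL1 was 28 without PL1 replicate 2, with 24 rises, where 27.0% of all genes were called and 12.8% were higher. It was 6 without PLA replicate 1 and 6 without PLA replicate 2, where 5.57% and 5.54% of all genes were called.

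Among the most abundant genes of each list, Glul stood out. It encodes glutamine synthetase, which makes glutamine from glutamate and ammonia. The libraries of PLA held 912.9 and 944.6 CPM, 315.2 and 83.0 CPM in PLA4, 52.5 and 53.3 CPM in PL12, and 59.7 and 62.7 CPM in PL1. All 4 PLA-line libraries were above all 4 PL-line libraries, unlike any of the 10 members, and 8.56% of all genes had this order. Glul rose 15.2-fold in PLA over PL1 (edgeR adjusted p = 0.00627) and 17.6-fold in PLA over PL12 (edgeR adjusted p = 0.00364), calls kept in all 17 other settings. It rose 3.76-fold in PLA4 over PL12 (edgeR adjusted p = 0.0370), kept in 7 of 17 settings, and missed the threshold in PLA4 over PL1 (adjusted p = 0.103). It fell 4.67-fold in PLA4 over PLA (edgeR adjusted p = 0.0283).
Slc38a2, a neutral amino acid transporter known to respond to amino acid shortage, was lowest in PL12. Its line mean was 408.4 CPM in PLA, 391.6 CPM in PLA4, 231.5 CPM in PL12 and 567.8 CPM in PL1. It rose 1.76-fold in PLA over PL12 (edgeR adjusted p = 0.0178) and 1.69-fold in PLA4 over PL12 (edgeR adjusted p = 0.0238), and fell 2.45-fold in PL12 over PL1 (edgeR adjusted p = 0.00713). Slc3a2, the shared heavy chain of several amino acid transporters, rose 1.92-fold in PLA over PL12 (edgeR adjusted p = 0.0464).
Ppp1r15b encodes a subunit of the phosphatase that reverses eIF2α phosphorylation. It fell 1.74-fold in PLA4 over PL1, 1.93-fold in PLA4 over PL12 and 1.80-fold in PLA4 over PLA (edgeR adjusted p = 0.0275, 0.00468 and 0.00835). Eif2s1, which encodes eIF2α itself, fell 1.55-fold in PLA over PL12 (edgeR adjusted p = 0.0140). Of the tRNA synthetases, Eprs fell 1.41-fold in PLA over PL1 and 1.61-fold in PLA4 over PL1 (edgeR adjusted p = 0.0451 and 0.0382), and Nars fell 1.97-fold in PLA4 over PLA (edgeR adjusted p = 0.0344). Shmt2, of mitochondrial one-carbon metabolism, was called in no comparison, with line means of 79.5 to 106.8 CPM.
Nupr1, a stress-induced chromatin protein, was at 390.7 and 372.5 CPM in PLA, 484.2 and 23.3 CPM in PLA4, 24.7 and 23.5 CPM in PL12, and 20.1 and 143.4 CPM in PL1. Ero1a, an oxidase of disulfide bond formation, was at 453.2 CPM in PL1 replicate 2 and 79.9 CPM in PL1 replicate 1. Neither gene was called in any of the 6 comparisons. Among these abundant pathway genes, 3 calls were kept in all 17 other settings, those of Glul named above and that of Ppp1r15b in PLA4 over PL12. The others were kept in 7 to 15 settings.

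The gap between the PL1 libraries extended to these lists. Of the 58 genes, 55 were higher in PL1 replicate 2 than in replicate 1, 16 by more than 2-fold, and 0 were lower by more than 2-fold. Of all 18648 genes tested, 806 (4.32%) were more than 2-fold higher in replicate 2, and 368 were more than 2-fold lower. Among them, chosen after their values were seen, Aldh1l2 was at 67.5 CPM in replicate 2 and 1.48 CPM in replicate 1, and Stc2 at 20.7 and 0.138 CPM. The regulator Ppp1r15a, which encodes GADD34 and closes the feedback on eIF2α, was at 164.7 CPM in replicate 2 and 38.9 CPM in replicate 1. Atf3, another bZIP factor of the response, was at 110.8 and 14.5 CPM. The median ratio over the 58 genes was 0.65 on the log2(CPM + 1) scale, and 0.88 over the 10 members, against 0 over all genes tested.

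Genes outside these lists with the most similar course over the 8 libraries were ranked by the root mean square difference of centred log2 values, among 10122 protein-coding genes of at least 5 CPM on average. Nearest to the mean course of the 10 genes were Slc25a33 (0.176), Creg1 (0.194), Ghitm (0.209) and Ncoa4 (0.216). Slc25a33, a mitochondrial carrier of pyrimidine nucleotides, was at 18.7 and 18.3 CPM in PLA, 6.93 and 6.08 CPM in PLA4, 6.81 and 6.75 CPM in PL12, and 7.35 and 16.2 CPM in PL1. For single members, Atf4 was nearest to Papss1 (0.0846), Asns to Lpin1 (0.133), Ddit4 to Itm2c (0.142) and Sesn2 to Osgin1 (0.150). Trib3, the most variable member, had its nearest course in Gda at a difference of 0.362, and Psat1 in Lrp8 at 0.356.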

How the data were processed

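Bulk RNA-seq of 4 mouse LUSC lines was used, with 2 libraries per line. Per the labels' protocols, RNA came from a column kit, cDNA from the SMARTer PCR method and libraries from Nextera XT. The authors deposited expected counts (estimated counts that need not be whole) per gene, and TPM values beside them, per the file headers. FastQC, STAR, RSEM and DESeq2 with GRCm38 are named in the submitters' processing notes, and annotation release and settings are not given in the sources used here. Of the expected counts, 14.2% were not whole, and all were rounded. TPM keeps no depth.

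Counts were tested with edgeR 4.0.16 (quasi-likelihood test, TMM scaling, filterByExpr with minimum count 10 and total 15) in 1 fit of 8 libraries with a mean for each line, which leaves 4 residual degrees of freedom. The fit held 18648 genes, and counts summed per line 18859. Adjusted p is by Benjamini-Hochberg over all genes tested, with a threshold of 0.05. CPM is scaled with TMM factors. DESeq2 1.42.0 and limma 3.58.1 (on log2 of TPM plus a pseudocount of 1 or 0.1) under R 4.3.3 served as alternatives. The tests were tested on simulated data. Whether the replicates of a line are separate cultures is not stated in the labels. The p-values therefore cover just the differences between such replicates, which could be technical. The lowest count of a member was 285. A floor of 3 counts is 0.0208 to 0.0614 CPM and, without molecular identifiers, covers counting error only.

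All 10 members are named. Of the other pathway lists, the 2 genes of each with the highest mean level are named, and others are marked as chosen after seeing their values. Members, lists and comparisons were chosen with earlier results of these data known. Promoter sequences are from RefSeq (GRCm38.p6), coordinates of genes from GENCODE mouse release M21 on GRCm38.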

Additional observations from a re-analysis of the deposited data

Results flagged for a closer look

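The value of PL1 replicate 2 stood apart from the 3 other PL-line libraries for 4 genes, by Dixon's criterion for 4 samples. Atf4 was at 363.2 CPM there, against 202.1 to 210.7 CPM in the other 3. Trib3 was at 47.6 CPM, against 4.19 to 9.59 CPM. Ddit3 was at 63.0 CPM, against 6.47 to 13.2 CPM, and Chac1 at 36.4 CPM, against 6.16 to 7.55 CPM. The criterion was applied to 20 groups, 10 genes in each of the PLA and PL families. Chance would mark about 1 group in 20. The libraries of a group come from 2 lines, so they are not independent samples of a group.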

How the results depend on the processing

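Of the 20 calls among the 10 genes, 3 passed in all 17 alternatives (Ddit4 and Sesn2 in PLA over PL12, Phgdh in PLA4 over PL12) and 0 changed sign. The counts of members called moved as follows, against 2, 7, 0, 3, 3 and 5 for PLA over PL1, PLA over PL12, PLA4 over PL1, PLA4 over PL12, PL12 over PL1 and PLA4 over PLA. The replicate numbers do not pair the libraries (correlation of deviations -0.19 to 0.01), and a fit with the replicate block gave 0, 6, 0, 3, 3 and 3. TPM with limma and no filter gave 0 in PLA over PL1, 3 in PLA over PL12, 1 in PL12 over PL1 and 2 in PLA4 over PLA. Over all genes, 14.7%, 22.0%, 12.8% and 15.2% were called in these 4 comparisons. Without a filter on low counts, and with DESeq2, the counts were 3, 9, 1, 3, 5 and 6, so that PLA over PL12 rose from 7 to 9. Both fits held 30966 genes. Without the filter, 17.3%, 22.3%, 7.13%, 21.4%, 14.7% and 18.4% of these were called. DESeq2 called 20.0%, 24.4%, 10.8%, 23.9%, 17.5% and 20.7% of them. Far more of all genes were called in all 4 comparisons of the families in the next 2 fits than with all libraries. The members called in all 4 there therefore do not by themselves mark a difference between the families. Without PL1 replicate 1 and PLA4 replicate 2 together, the counts were 8 in PLA over PL1, 9 in PLA4 over PL1, 8 in PLA4 over PL12, 10 in PL12 over PL1 and 10 in PLA4 over PLA, with 2 members, Phgdh and Psat1, lower in all 4 comparisons of the families. Without PL1 replicate 2 and PLA4 replicate 1, they were 9, 6, 8, 8 and 10, with 1 member, Chac1, higher in all 4. These fits left PL1 and PLA4 with 1 library each, and called 38.1% to 64.5% of all genes over the 6 comparisons and both pairs, against 8.54% to 37.7% with all libraries.

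Leaving out single libraries gave 0 to 5 calls in PLA over PL1, 2 to 10 in PLA over PL12, 0 to 5 in PLA4 over PL1, 1 to 5 in PLA4 over PL12, 0 to 5 in PL12 over PL1, 0 to 9 in PLA4 over PLA and 0 to 1 in all 4. Omitting any PLA or PL12 library lowered the counts in PLA over PL1 and in PLA over PL12, where the share of all genes called also fell. Omitting either PL1 library raised the counts in PLA over PL12 and in PLA4 over PLA, where the share of all genes called also rose. The median log2 fold change of the 10 genes was then 1.90 without PL1 replicate 1 and 1.82 without PL1 replicate 2 in PLA over PL12. In PLA4 over PLA it was -1.25 and -1.19. Of differences that were not called, Asns in PLA over PL1 had a positive sign with the block (0.0086) and with TPM at pseudocounts of 1, with and without a filter (0.044), and 0.1 (0.045). Atf5 in PL12 over PL1 did so with TPM (0.0050 at a pseudocount of 1, 0.024 at 0.1). Leaving out libraries, singly or in the 2 pairs, moved further log2 fold changes across 0 that were not called with all libraries. Some of the moved values were called, each in a fit that left PL1 with 1 library. In PLA over PL1 the ranges were -0.12 to 0.77 for Atf4, -0.43 to 2.90 for Ddit3, -0.45 to 0.47 for Asns, -0.94 to 0.020 for Psat1 and -0.29 to 0.39 for Phgdh. In PLA4 over PL1 they were -0.83 to 0.021 for Atf4, -3.71 to 0.025 for Trib3, -1.75 to 1.54 for Ddit3, -1.56 to 1.01 for Chac1, -1.05 to 0.016 for Asns, -2.50 to 0.34 for Psat1, -1.43 to 0.92 for Atf5 and -0.54 to 0.022 for Ddit4. In PLA4 over PL12 they were -0.31 to 0.19 for Atf4 and -1.13 to 0.12 for Atf5. In PL12 over PL1 they were -0.80 to 0.064 for Atf4, -2.35 to 1.17 for Trib3, -2.36 to 0.94 for Ddit3, -2.38 to 0.20 for Chac1 and -1.04 to 1.30 for Atf5. In PLA4 over PLA, Psat1 ran from -1.57 to 0.32. The cause of these shifts was not tested. Genes called in all 4 comparisons numbered 372, against 714 with DESeq2, 132 with the block and 211 with unfiltered TPM.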

Other observations

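The second row named Ddit3 (ENSMUSG00000116429.1) shows how far TPM and counts can part for a very short model. Its 105 exon bases all lie within the exons of the main Ddit3 row. It took 0 to 107 counts per library, at most 2.20% of the counts of both rows. PLA held 268.8 and 349.6 TPM in this row, with 137.5 and 46.7 in PLA4, 0 and 30.6 in PL12, and 55.6 and 536.9 in PL1. In PL1 replicate 2 the main row was at 137.9 TPM, below the short row. Counting Ddit3 by summed TPM would thus give 674.8 TPM in that library, while CPM would hardly move.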
